A study of Homo sapiens with 8 samples.

Results

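The response of the kidney cancer line CAKI2 to A939572, an inhibitor of stearoyl-CoA desaturase 1, was measured on 2 of the 8 arrays of the series. One array held RNA from CAKI2 cells given 75 nM of the drug for 24 h, and the other RNA from CAKI2 cells given the solvent DMSO for the same time. For each gene, the difference between these arrays on the log2(signal + 16) scale, drug minus DMSO, was set against the same difference within ACHN, A498 and CAKI1, the other 3 lines, each of which also had 1 array per side at this dose and time. A CAKI2 difference was described as above the range when it was higher than in each of the other 3 lines, and as below the range when it was lower than in each of them. All 4 are established human renal carcinoma lines that the submitters call clear cell lines. The labels name 1 sample per line and treatment and do not state separate cultures, so no spread within CAKI2 can be given, and the only error available is the spread between lines.

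Stearoyl-CoA desaturase introduces a double bond into saturated acyl chains and so supplies the monounsaturated fatty acids of membrane phospholipids and stored lipid. When the membrane of the endoplasmic reticulum becomes too saturated, the sensors of the unfolded protein response can be activated without any misfolded protein. Their branches use the transcription factors ATF6 and XBP1, which drive chaperone and degradation genes, and the kinase PERK, which through ATF4 and CHOP drives amino acid supply and cell death genes. Type I interferon acts through a separate route, in which a transcription factor complex that includes IRF9 binds a response element in the promoters of antiviral genes.

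Most of the listed renal epithelial markers gave signal on the CAKI2 arrays, which checks neither the name of the line nor its tissue. PAX8, the transcription factor that defines renal epithelium, had 12.32 in DMSO and 12.66 with the drug, and CA12, a carbonic anhydrase of clear cell tumours, had 14.60 and 14.31. On the arrays of the other lines PAX8 had 11.97 to 13.02. CA12 had 13.90 and 12.86 in A498 but was far lower on both arrays of ACHN and of CAKI1. It had 8.18 in ACHN with the drug, and 8.53 in DMSO and 8.46 with the drug in CAKI1. CDH1, the epithelial cadherin, was near the floor of the arrays at 4.41 and 4.30. Of the renal epithelial markers 14 of 19 were above the level of 6.41 that was used as filter, by the mean of the CAKI2 arrays. Beside CDH1, those below it were MME, CUBN, LRP2 and GGT1. AQP1, at 6.64 in DMSO and 6.28 with the drug, and LHX1, at 7.15 and 6.43, were close to that level. Of the markers of other cell types, 2 of 5 for leukocytes, 1 of 6 for endothelium and 1 of 9 for fibroblasts were above it. The leukocyte markers PTPRC and CD14 and the endothelial marker CDH5 were below it on both arrays. The leukocyte marker ITGAM had 8.40 in DMSO and 9.04 with the drug, and the endothelial marker PECAM1 had 8.84 and 8.34, in each case above all 6 arrays of the other lines. The summed level of the leukocyte markers was 9.21 in DMSO and 9.64 with the drug, above the 8.28 to 8.94 of the other 6 arrays. That of the endothelial markers was 9.42 and 8.86, against 8.31 to 8.60, and that of the fibroblast markers 9.83 and 9.45, inside the 9.32 to 12.10 of the others. The part of these levels in the results below was not tested. Control probe sets also moved with the drug. For ACTB the signal of the 3′ control divided by that of the 5′ control went from 2.17 to 3.39 in CAKI2, a log2 difference of 0.64 that lay between those of the other lines (0.42 to 0.98). The control at the 5′ end of 28S ribosomal RNA was higher by 1.37 in CAKI2, against 2.60 to 2.79 in the others. Their part in the results was not tested either.

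Much of the CAKI2 response resembled that of the other lines. Across the 12093 genes tested, the CAKI2 differences correlated with those of ACHN at r = 0.586, of A498 at 0.594 and of CAKI1 at 0.521. These are descriptions across genes, which are not independent replicates. The SD of the differences was 0.69 in CAKI2 and 0.64 to 0.75 in the other lines. In CAKI2, 773 genes (6.39%) were at least 2-fold higher with the drug and 754 (6.24%) at least 2-fold lower. ATF3, a stress-induced transcription factor, showed the common part most clearly, with log2 differences of 4.04 in CAKI2 and 3.88 to 4.24 in the others. The chemokine gene CXCL8 was alike, with 3.87 in CAKI2 and 3.08 to 3.88 elsewhere.

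The departure of CAKI2 from the other lines was tested gene by gene with limma, as a term for the drug in CAKI2 beside the common drug effect. No gene passed at a Benjamini-Hochberg adjusted p under 0.05 (0 of 12093, 0%), and the smallest limma adjusted p was 0.500. At an unadjusted p under 0.05 there were 647 genes (5.35%), 386 of them higher in CAKI2 and 261 lower. Used in turn on ACHN, A498 and CAKI1, the same test also called 0 genes, with 667, 568 and 584 at the unadjusted level. With 1 line against 3, an exact permutation test cannot give a p below 0.25, or below 0.5 where the 1-sided p is doubled. Without CAKI1, limma called 6 genes: IFIT1, IFIT3, HERC5, NUPR1 and CD24, whose probe set is of a kind that can match several transcripts, in the higher direction and ANKRD1 in the lower. Everything that follows is therefore a description of these arrays, and none of it is shown by a test to be a property of CAKI2.

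**Figure D1:**
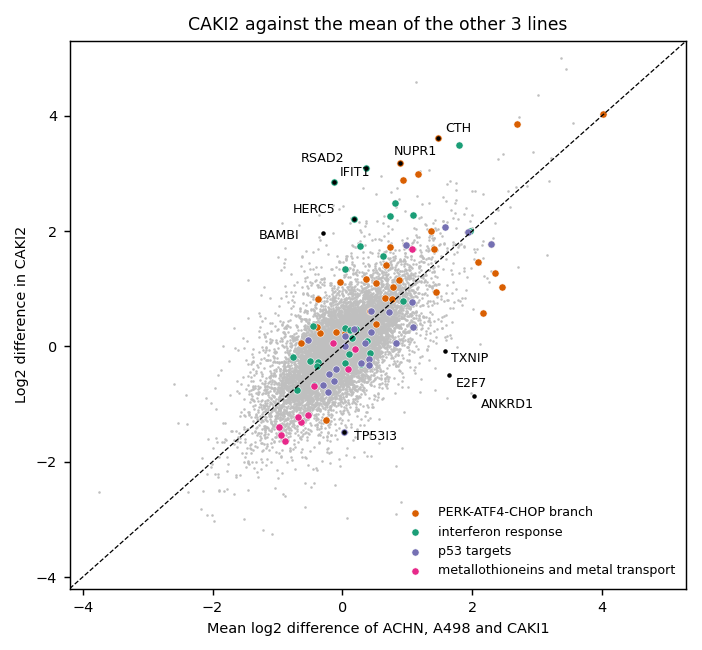
Log2 difference of each gene in CAKI2 (vertical axis, drug minus DMSO) against the mean log2 difference of ACHN, A498 and CAKI1 (horizontal axis). Grey points are the 12093 genes tested, coloured points the members of 4 gene lists, and the dashed line marks equal differences. NUPR1, CTH, IFIT1, RSAD2, HERC5 and BAMBI lie above the line, and TXNIP, E2F7, ANKRD1 and TP53I3 below it.

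Of all genes tested, 3029 (25.0%) lay above the range of the other lines and 3051 (25.2%) below it. Those shares are the background for each list below. By at least 1 log2 unit, 142 genes (1.17%) lay above the range and 79 (0.653%) below it. Of the 142, 98 (69.0%) had the lowest DMSO value of the 4 lines in CAKI2, against 26.0% of all genes tested, and in 67 the DMSO value was below the filter level. Of the 79, 39 (49.4%) had their highest DMSO value in CAKI2, against 27.5% of all genes, and in 43 the value with the drug was below that level. The difference and this rank share the CAKI2 DMSO array, so they are not independent. NUPR1 is a gene of this kind, with the lowest DMSO value of the lines, whereas HERC5 is not, with DMSO values of 10.86 to 11.17 in all 4 lines.

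Genes of the PERK branch were among those farthest above the other lines. NUPR1, a small chromatin protein induced by stress through ATF4, had 7.93 in DMSO and 11.11 with the drug in CAKI2. It went from 11.88 to 13.07 in ACHN, from 11.50 to 11.96 in A498 and from 11.69 to 12.71 in CAKI1. CAKI2 thus started far below the other lines and, with the drug, was still below each of their DMSO arrays, after a 9.04-fold difference. The departure from the mean of the other lines was 2.29 with a limma SE of 0.34 (adjusted p = 0.500, and 0.0294 to 0.866 over the alternatives).

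CTH, cystathionine gamma-lyase, which makes cysteine, had 9.26 in DMSO and 12.87 with the drug in CAKI2. The difference of 3.61 compared with 0.57 in ACHN, 2.37 in A498 and 1.49 in CAKI1, and a second probe set of the gene gave 3.14 against 0.82 to 2.27. ALDH1L2, a mitochondrial folate enzyme, had 6.28 and 9.17, a difference of 2.89 against 0.72 to 1.21, and 2.88 against -0.98 to 1.15 in its second probe set. PSAT1, an enzyme of serine synthesis, was the member on which the direction itself differed. Its CAKI2 level went from 12.70 to 13.52, a difference of 0.82, while it differed by -0.48 in ACHN, -0.16 in A498 and -0.50 in CAKI1, and its second probe set split in the same way (0.33 against -1.50 to -0.45). MTHFD2, the partner of ALDH1L2 in mitochondrial folate metabolism, had 1.17 against 0.18 to 0.56. DDIT3, which encodes CHOP, had 10.09 and 13.94, a difference of 3.85 against 2.27 to 2.94. TNFRSF10B, the death receptor that CHOP induces, had 1.76 against 0.82 to 1.10, and its further probe sets lay above, inside and below the range. The angiogenic factor VEGFA, another ATF4 target, had 1.72 against 0.49 to 1.05, with its 3 further probe sets above the range.

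Other members of the branch pointed the other way. STC2, a secreted stress glycoprotein, had only 1.03 in CAKI2 against 1.68 to 3.05, from the highest DMSO value of the lines (11.64). Its second bright probe set lay inside the range. SLC7A11, the cystine transporter, had 0.57 against 0.81 to 2.96, also from the highest DMSO value (14.28). Of its 2 further bright probe sets 1 was below the range and 1 inside it. GADD45A, a growth arrest gene, had 1.78 against 2.22 to 2.34. PPP1R15A, which feeds back on PERK signalling, had 1.46 against 1.88 to 2.26. ATF5, a transcription factor related to ATF4, had -1.29 in CAKI2 against -0.37 to -0.19, but its second probe set (-0.67) lay inside the range. In all, 17 of 34 PERK branch genes were above the range and 5 below it, 0 were called, and the median difference was 1.13 in CAKI2 against 0.83 for the mean of the other lines. Over all genes tested these medians were -0.02 and -0.03. By the same rule 7 of the 34 lay above the range of the remaining lines in ACHN, 2 in A498 and 8 in CAKI1. Of the 17 genes above the range in CAKI2, 11 had further probe sets above the filter level. In 6 of these all of them lay above the range as well, and 3 had a probe set below it.

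**Figure D2:**
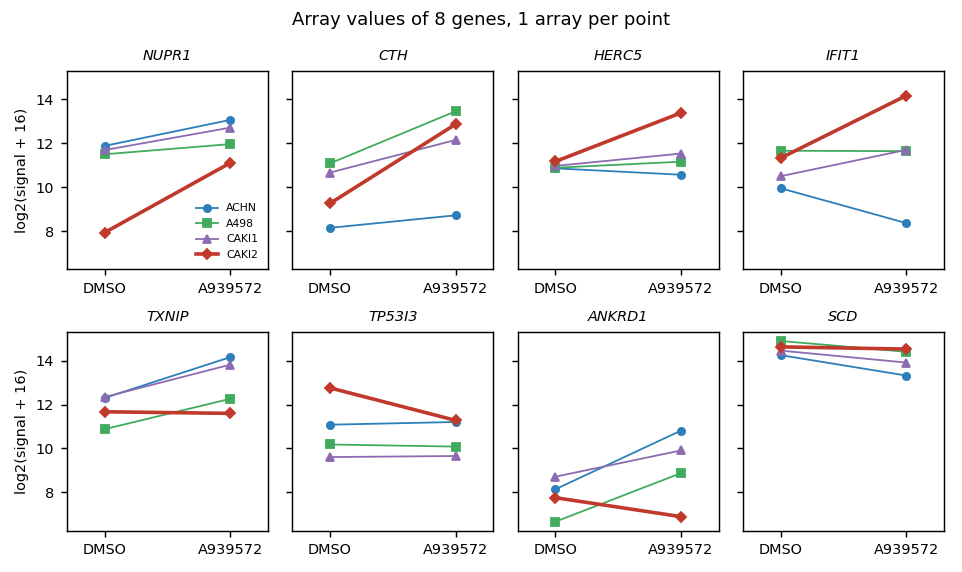
Values of 8 genes on each array, as log2(signal + 16) after quantile normalization, with 1 array per point and a line joining DMSO to A939572 within a cell line. CAKI2 is the thick red line. NUPR1 starts lowest in CAKI2, HERC5 starts level with the other lines and ends highest, and TXNIP is flat in CAKI2 while it is higher with the drug in the others.

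The tRNA synthetases, which charge tRNAs with amino acids and many of which are ATF4 targets, leaned the same way. Of 15 cytosolic synthetases tested, 13 were above the range and 0 below it, with 0 called and a median of 0.54 in CAKI2 against 0.21 for the mean of the others. No synthetase lay above the range in ACHN or CAKI1 (0 each), and 2 did in A498. AARS1, for alanine, had 11.82 and 12.63 in CAKI2, a difference of 0.81 against -0.21 to 0.27. YARS1, for tyrosine, had 0.88 against 0.15 to 0.36. WARS1, for tryptophan, which interferon also induces, had the largest difference of the list at 2.19, though ACHN was close at 1.89. Further probe sets were available for 7 of the 13. In 5 of those all lay above the range too, and 2 had a probe set below it. For 12 of the 13 the DMSO value of CAKI2 was the lowest of the 4 lines, compared with 1309 of the 3029 genes above the range in all.

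Targets of ATF6 and XBP1 were above the range in 19 of 31 cases and below it in 3, with 0 called. Their median was 1.52 in CAKI2, against 0.94 in ACHN, 1.16 in A498 and 0.81 in CAKI1. HERPUD1, a membrane component of the degradation machinery of the endoplasmic reticulum, had 12.24 in DMSO and 15.06 with the drug in CAKI2. That difference of 2.82 compared with 1.61 in ACHN, 1.75 in A498 and 1.48 in CAKI1. CAKI2 had the lowest HERPUD1 value of the DMSO arrays and the highest of the treated ones. EDEM2, which marks misfolded glycoproteins for degradation, had 1.76 against 0.39 to 0.95. CRELD2, a secreted stress-responsive chaperone partner, had 11.43 and 13.27, a difference of 1.84 against 0.73 to 1.16. HSPA5, the central chaperone BiP, had 14.22 and 15.71. Its difference of 1.49 compared with 0.86 to 1.11 elsewhere, and the treated value in all lines was within 15.61 to 15.77. SDF2L1, a cofactor of BiP, had 2.14 against 1.08 to 1.83. The transcript of ATF6 itself was among the 3 members below the range, at -0.15 against 0.09 to 0.37 in its brightest probe set, though the dimmest of its 4 was above the range. By the same rule 5 of the 31 genes lay above the range in ACHN, 5 in A498 and 2 in CAKI1, where 19 lay below it.

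The promoters of HSPA5 and CRELD2 are shown because they hold the endoplasmic reticulum stress element, to which ATF6 binds together with NF-Y. They were taken from RefSeq (GRCh38.p14) and are the 250 bases before the annotated start, on the gene's strand, 5′ to 3′. The capitals mark each match to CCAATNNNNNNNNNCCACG, searched on both strands. HSPA5 lies at chr9:125241344-125241593 on the minus strand and CRELD2 at chr22:49918384-49918633 on the plus strand.
HSPA5: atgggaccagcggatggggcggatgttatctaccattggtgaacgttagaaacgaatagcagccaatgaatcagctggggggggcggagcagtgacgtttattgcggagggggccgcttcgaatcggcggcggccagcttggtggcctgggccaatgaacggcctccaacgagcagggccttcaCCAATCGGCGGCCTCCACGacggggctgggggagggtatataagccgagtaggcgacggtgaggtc
CRELD2: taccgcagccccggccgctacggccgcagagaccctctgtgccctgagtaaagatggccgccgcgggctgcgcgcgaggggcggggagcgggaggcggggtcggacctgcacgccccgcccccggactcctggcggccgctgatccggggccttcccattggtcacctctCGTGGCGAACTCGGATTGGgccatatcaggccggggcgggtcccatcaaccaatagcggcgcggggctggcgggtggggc
A match was found in 7 of the 27 ATF6 and XBP1 targets with a promoter in the table, and in 14 of 9884 genes tested (0.142%). Among the 18 listed genes above the CAKI2 range it was found in 4, and among the 9 not above it in 3, so the letters did not separate the members that stood apart in CAKI2. A match describes these letters and is not a measured binding site.

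Several interferon-induced genes were higher with the drug in CAKI2 by more than in the other lines, and some of them differed in direction from 1 or more of those lines. IFIT1, an antiviral protein that binds viral RNA, had 11.33 in DMSO and 14.18 with the drug in CAKI2. It went from 9.95 to 8.36 in ACHN, from 11.66 to 11.64 in A498 and from 10.50 to 11.70 in CAKI1. The CAKI2 array with the drug was the highest of all 8, 7.20-fold above its control. HERC5, the ligase that attaches ISG15 to proteins, had 11.17 and 13.39 in CAKI2. Its difference of 2.22 compared with -0.29 in ACHN, 0.27 in A498 and 0.56 in CAKI1. ISG15, the ubiquitin-like modifier itself, had 11.07 and 12.80, a difference of 1.73 against -0.07 to 0.84.

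RSAD2, the antiviral enzyme viperin, had 8.19 and 11.28 in CAKI2, a difference of 3.09 against -0.79 to 1.66, and 3.34 against -1.70 to 1.85 in its second probe set. IFIH1, a sensor of double-stranded RNA, had 2.27 against 0.85 to 1.33, and of its 2 further bright probe sets 1 was inside the range. For IFIT2 and IFIT3 CAKI1 came close, and for IFIT5 A498 did, with 0.29 against 0.31 in CAKI2. IFIT2 had 3.49 in CAKI2 and 3.05 in CAKI1, with 1.64 in ACHN and 0.72 in A498. IFIT3 had 2.48 in CAKI2 and 2.16 in CAKI1, with -0.07 in ACHN and 0.35 in A498, and its second probe set lay inside the range at 2.15. OASL, an antiviral protein of the oligoadenylate synthetase family, had 2.26 in CAKI2 and 1.65 in CAKI1, with 0.00 in ACHN and 0.55 in A498. On IFIT2, IFIT3 and OASL, CAKI1 was thus nearer to CAKI2 than to ACHN or A498.

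In all, 13 of 28 interferon response genes were above the range and 4 below it, and 0 were called. The median was 0.31 in CAKI2 against 0.17 for the mean of the others. By line it was -0.03 in ACHN, 0.25 in A498 and 0.22 in CAKI1, so A498 and CAKI1 were close to CAKI2 by this measure. By the same rule 5 lay above the range in ACHN, 6 in A498 and 4 in CAKI1, and 15 lay below it in ACHN. IRF9, a subunit of the complex that type I interferon activates, was among the 4 below the range, at -0.31 against 0.22 to 0.38. JAK1, a kinase of the interferon receptors that was not on the list, had 5.44 in DMSO and 4.24 with the drug in CAKI2, both below the filter level, against 13.29 to 13.90 on the other 6 arrays. It was named after its values were seen. SOCS1, an inhibitor of cytokine signalling that interferon induces, had 7.07 and 8.70 in CAKI2, while it was lower with the drug in all other lines. Its difference of 1.63 compared with -0.52 to -0.34, and its second probe set gave 0.77 against -0.99 to -0.46. GBP2, an interferon-induced GTPase, had 1.90 against -0.73 to -0.16, but from 4.34 to 6.24, below the filter level on both arrays, and its second probe set lay inside the range. The 2 members of the leukocyte list above the filter level were both inside the range of the other lines.

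The promoters of IFIT1, HERC5 and ISG15 are shown because they hold the interferon-stimulated response element. The capitals mark matches to GAAANNGAAA on either strand, and neighbouring matches can overlap. They are the 250 bases before the RefSeq start (GRCh38.p14), on the plus strand, 5′ to 3′: IFIT1 at chr10:89392373-89392622, HERC5 at chr4:88456869-88457118 and ISG15 at chr1:1013247-1013496.
IFIT1: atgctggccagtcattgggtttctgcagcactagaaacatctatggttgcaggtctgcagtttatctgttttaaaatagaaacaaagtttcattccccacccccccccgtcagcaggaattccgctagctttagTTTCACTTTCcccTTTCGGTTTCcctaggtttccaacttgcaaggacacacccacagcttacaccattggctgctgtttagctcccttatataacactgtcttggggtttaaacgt
HERC5: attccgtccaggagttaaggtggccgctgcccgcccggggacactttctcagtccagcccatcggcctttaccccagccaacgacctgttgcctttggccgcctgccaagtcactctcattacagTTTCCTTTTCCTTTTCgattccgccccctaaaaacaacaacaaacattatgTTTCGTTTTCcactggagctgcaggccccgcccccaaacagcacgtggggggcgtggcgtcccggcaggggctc
ISG15: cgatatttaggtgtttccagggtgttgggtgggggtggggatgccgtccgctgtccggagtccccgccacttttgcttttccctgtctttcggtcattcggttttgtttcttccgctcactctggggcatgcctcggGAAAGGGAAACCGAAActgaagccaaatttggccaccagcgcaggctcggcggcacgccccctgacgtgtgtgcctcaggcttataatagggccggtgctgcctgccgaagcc
The element was found 2 times in IFIT1, 3 times in HERC5 and 2 times in ISG15. Of the 24 interferon response genes with a promoter on file, 16 held it (66.7%), against 330 of 9884 genes tested (3.34%). It was found in 9 of the 11 above the CAKI2 range and in 7 of the 13 not above it. The list is one of known interferon targets, so the first of these shares says nothing about CAKI2, and no test was made of the second.

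**Figure D3:**
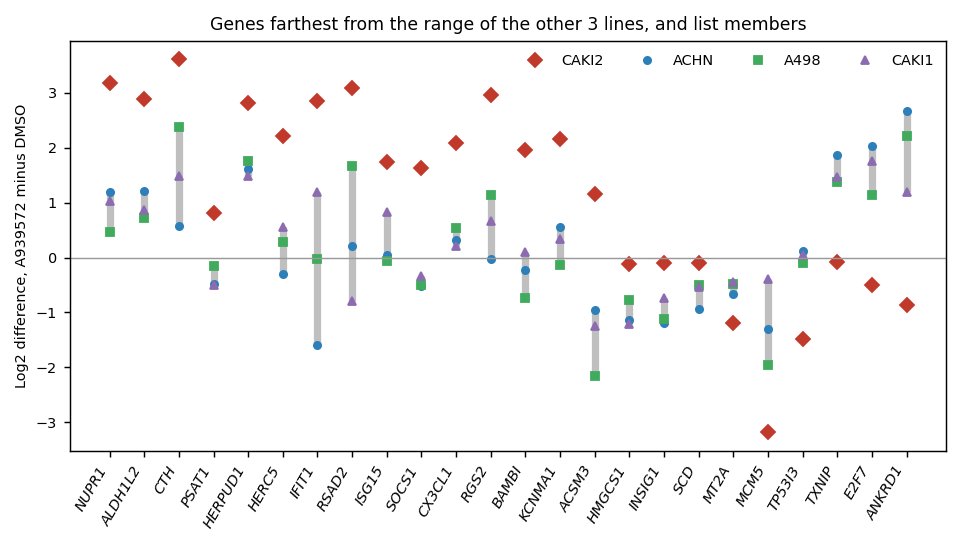
Log2 difference, drug minus DMSO, of 24 genes in each line. Grey bars span ACHN, A498 and CAKI1, and red diamonds are CAKI2. From NUPR1 to SCD the diamond lies above the bar, and from MT2A to ANKRD1 below it.

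Chemokine and signalling genes added single departures on the higher side. CX3CL1, a membrane-bound chemokine, had 8.93 and 11.02 in CAKI2, a difference of 2.09 against 0.21 to 0.53, and 2.44 against -0.66 to 1.04 in its second probe set. IL1A, an alarm cytokine, had 4.43 in DMSO and a difference of 4.58 against -1.08 to 2.59, but another probe set gave -0.06 in CAKI2. CCL2, the monocyte chemokine, had 4.44 and 6.72 and so began below the filter level. Of 25 NF-kB targets and cytokines, 6 were above the range and 4 below it, close to the background shares, with 0 called. RGS2, a brake on G protein signalling, had 7.67 and 10.63 in CAKI2, a difference of 2.96 against -0.02 to 1.14. BAMBI, a decoy receptor that dampens TGF-beta signalling, had 10.51 and 12.48 in CAKI2, a difference of 1.97 against -0.73 to 0.09. TENT5A, a poly(A) polymerase, had 2.23 against -0.27 to 0.67, and 2.90 against -0.05 to 0.30 in a second probe set. KCNMA1, a calcium-activated potassium channel, had 2.16 against -0.14 to 0.56 and 2.01 against -0.11 to 0.66 in its 2 brighter probe sets, but lay inside the range at 0.76 in the third, and without probe sets matching several transcripts the departure was -0.53. EEF2K, the kinase that slows translation elongation, had 10.58 and 11.60, a difference of 1.03 where the others had -0.70 to -0.55.

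Among regulators of cell death, BCL2L11 differed in direction. It encodes BIM, an activator of mitochondrial apoptosis, and had 9.75 in DMSO and 10.86 with the drug in CAKI2. It went from 9.67 to 8.93 in ACHN, from 9.81 to 9.56 in A498 and from 9.21 to 8.10 in CAKI1, so that the CAKI2 array with the drug was the highest of the 8. Of its 5 further probe sets above the filter level 4 were also above the range. The list of BCL2 family members and caspases as a whole had 6 of 25 above the range and 9 below it, with 0 called and a median of 0.21 in CAKI2 against -0.01. CASP10, an initiator caspase, had 0.88 against 0.03 to 0.23. BCL2L1, the survival factor BCL-XL, had -0.44 against -0.17 to 0.13.

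The lists of fatty acid synthesis and of cholesterol synthesis were, by their medians, less reduced in CAKI2. The list of glycerolipid and phospholipid synthesis was not, with a median of -0.29 in CAKI2 and -0.28 for the mean of the others, and 10 of its 24 genes above the range and 7 below it, with 0 called. SCD, the gene of the inhibited enzyme, had 14.63 in DMSO and 14.53 with the drug in CAKI2, a difference of -0.10. It had -0.93 in ACHN, -0.49 in A498 and -0.55 in CAKI1, and CAKI2 lay above the range in each of its 4 probe sets above the filter level. The departure was 0.56 with an SE of 0.23 (limma adjusted p = 0.924). The drug acts on the protein, and the transcript therefore does not check the labels. SCD5, the second human desaturase of this kind, had 6.87 and 7.50, a difference of 0.63 against -0.03 to 0.42, but its second probe set was inside the range at -0.78. SREBF1, whose product drives fatty acid synthesis genes, had 8.44 and 9.16, a difference of 0.72 against -0.33 to 0.10. ELOVL6, the elongase that feeds and follows SCD, had 12.93 and 12.62 in CAKI2, a difference of -0.32 against -1.76 to -0.90. Of its 2 further bright probe sets 1 was above the range and 1 inside it. FADS2, the desaturase of polyunsaturated fatty acids, ran the other way, with 7.21 and 5.43 and so -1.78 against -0.85 to -0.46, ending below the filter level. Of 14 genes of fatty acid synthesis 5 were above the range and 2 below it, with 0 called and a median of -0.31 in CAKI2 against -0.48. By the same rule 2 lay above the range in ACHN, 5 in A498 and 2 in CAKI1, so this count was not particular to CAKI2.

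The sterol genes had the same lean. INSIG1, which retains the sterol sensor in the endoplasmic reticulum, had 13.15 and 13.05 in CAKI2, a difference of -0.10 against -1.20 to -0.74. Of its 2 further bright probe sets 1 was above the range and 1 inside it. HMGCS1, the first committed enzyme of the pathway, had -0.12 against -1.21 to -0.78, and -0.08 against -1.06 to -0.47 in its second probe set. IDI1, which isomerizes isopentenyl diphosphate, had -0.73 against -1.51 to -1.24, with its 3 further bright probe sets above the range too. HSD17B7, a late enzyme of the pathway, had 11.91 and 12.66, a difference of 0.75 against -0.17 to 0.05. Not all members followed. EBP, the sterol isomerase, had -1.75 in CAKI2 and -1.83 to -1.50 in the others. The mevalonate kinase gene MVK, at -0.74 against -0.40 to 0.04, PMVK and SREBF2 were below the range, although MVK and SREBF2 each had a further probe set above it. Of 18 cholesterol synthesis and uptake genes 9 were above the range and 3 below it, 0 were called, and the median was -0.52 in CAKI2 against -0.77. By the same rule 1 lay above the range in ACHN, 4 in A498 and 4 in CAKI1. ACSL1, which activates long-chain fatty acids, had 13.28 and 13.20 in CAKI2, a difference of -0.08 where the others had -1.23 to -0.88.

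**Figure D4:**
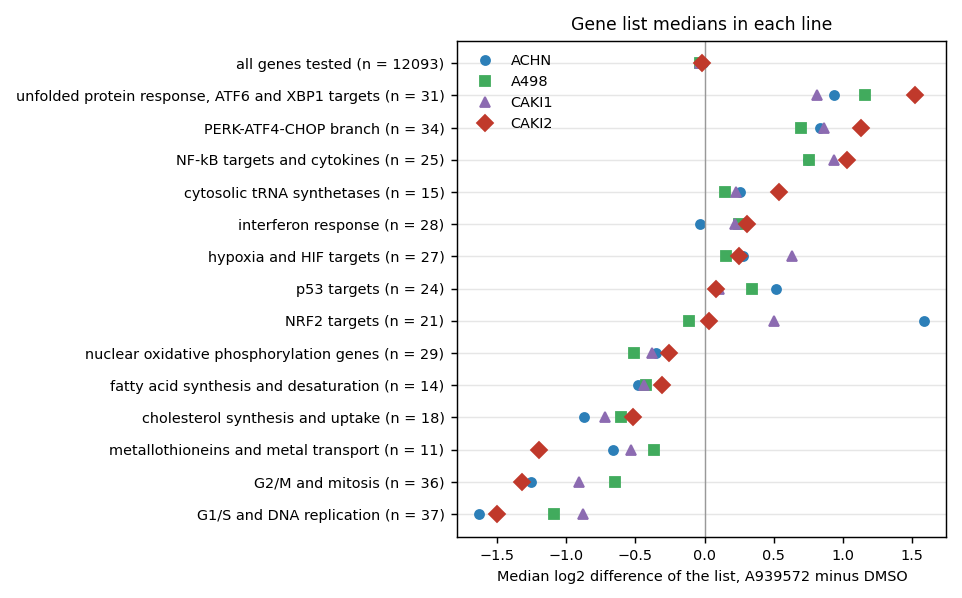
Median log2 difference, drug minus DMSO, of 14 gene lists and of all genes tested, by line, with the number of genes tested in brackets. CAKI2 is the red diamond. It is the highest of the 4 for the unfolded protein response (1.52), the PERK branch (1.13) and the tRNA synthetases (0.54), and the lowest for the metallothioneins (-1.20) and G2/M (-1.32).

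Genes of p53 stood on the lower side. TP53I3, a quinone oxidoreductase linked to oxidative stress in p53-driven death, had 12.76 in DMSO and 11.28 with the drug in CAKI2. It went from 11.08 to 11.21 in ACHN, from 10.18 to 10.09 in A498 and from 9.61 to 9.66 in CAKI1. CAKI2 therefore had the highest DMSO value by far, and with the drug it was 2.79-fold lower, next to the ACHN level. E2F7, a repressor of cell cycle genes that p53 induces, had 11.33 and 10.83 in CAKI2, a difference of -0.50, whereas it was higher with the drug by 2.03 in ACHN, 1.14 in A498 and 1.76 in CAKI1. Its second probe set gave -0.99 against 0.17 to 1.22. CCNG1, an early p53 target, had -0.79 against -0.35 to -0.14. AEN, a nuclease of apoptosis, had 0.33 against 0.98 to 1.17. PHLDA3, an inhibitor of AKT, had -0.33 against 0.14 to 0.60, and its second probe set was below the range too.

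The main p53 reporters differed less between lines. CDKN1A, the cell cycle inhibitor p21, had 0.60 in CAKI2 and 0.61 to 0.94 in the others. MDM2, which degrades p53, had 0.77 against 0.85 to 1.39, and 4 of its 6 further bright probe sets were inside the range. Of 24 p53 targets 16 were below the range and 3 above it, 0 were called, and the median was 0.08 in CAKI2 against 0.37. By the same rule 0 lay below the range in ACHN, 3 in A498 and 5 in CAKI1. The medians themselves were 0.52 in ACHN, 0.34 in A498 and 0.11 in CAKI1, so CAKI2 was next to CAKI1 by this measure. Of the 16 genes below the range in CAKI2, 8 had further probe sets above the filter level. In all 8 at least 1 of these lay below the range, in 3 all did, and in 2 at least 1 lay above it. The count below the range was 9 once probe sets matching several transcripts were dropped. That setting tests only 9377 genes in all, so the 9 are not out of the same 24.

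TXNIP and ARRDC4, related arrestins that both respond to glucose through the factor MondoA, parted from the other lines together. TXNIP had 11.67 and 11.60 in CAKI2, a difference of -0.07. It went from 12.30 to 14.17 in ACHN, from 10.88 to 12.27 in A498 and from 12.35 to 13.82 in CAKI1. All 3 of its probe sets above the filter level were below the range in CAKI2, with -0.07, -0.23 and -0.44. The departure was -1.65 with an SE of 0.28 (limma adjusted p = 0.500). ARRDC4 had 10.48 and 10.78, a difference of 0.30, while it went from 8.85 to 10.52 in ACHN, from 10.40 to 11.65 in A498 and from 8.33 to 9.80 in CAKI1.

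These 2 belong to the 20 genes (0.165%) that were at least 2-fold higher with the drug in ACHN, A498 and CAKI1 and under 1.5-fold different in CAKI2. DTNA, the dystrobrevin of the muscle membrane complex, was another, with 0.11 against 1.24 to 2.16, and of its 2 further bright probe sets 1 was inside the range. DUSP5, a phosphatase that switches off nuclear ERK, had 12.19 and 12.62 in CAKI2, a difference of 0.43 against 1.01 to 1.91, from the highest DMSO value of the lines. LOX, the collagen crosslinking oxidase, had 0.48 against 1.34 to 1.66, but its other 2 bright probe sets were inside the range. A further 17 genes (0.141%) were at least 2-fold lower in the other lines and under 1.5-fold different in CAKI2. PDZK1, a scaffold of transporters in the kidney, had 11.91 on both CAKI2 arrays, while it was lower by 1.26 to 2.67 in the others. ITGA6, an integrin that binds laminin, had -0.27 against -1.72 to -1.19, and FZD4, a Wnt receptor, 0.27 against -1.16 to -1.06.

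In the reverse class, 73 genes (0.604%) were at least 2-fold higher and 73 (0.604%) at least 2-fold lower in CAKI2 while under 1.5-fold different in each other line. HERC5, SOCS1, CX3CL1 and KCNMA1, described above, were among the first. SYTL2, which carries secretory vesicles, had 1.80 against 0.09 to 0.43, and 1.72 against 0.08 to 0.14 in its second probe set. TP53I3 and ATF5 were among the second, as was the growth factor receptor FGFR1, with 10.61 and 9.11 in CAKI2 and so -1.50 against -0.41 to -0.02 in its brightest probe set, while of its 6 further bright ones 2 were below the range, 3 inside it and 1 above it. The total of 146 compares with 204 such genes in ACHN, 152 in A498 and 126 in CAKI1. The 37 of the class before compare with 24, 35 and 52. CAKI2 was thus between the other lines in the number of genes that went their own way.

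Opposite differences of at least 1.5-fold, one way in CAKI2 and the other way in all 3 other lines, were seen for 4 genes (0.0331%) higher in CAKI2 and 4 (0.0331%) lower. ANKRD1, a stretch-induced nuclear protein and target of YAP, had 7.76 and 6.89 in CAKI2. It went from 8.14 to 10.81 in ACHN, from 6.66 to 8.88 in A498 and from 8.71 to 9.91 in CAKI1. ACSM3, a mitochondrial enzyme that activates medium-chain fatty acids, had 7.55 and 8.70 in CAKI2, while it differed by -0.95 in ACHN, -2.17 in A498 and -1.25 in CAKI1. Its second probe set gave 0.70 against -2.72 to -1.85. SYNE2, a giant protein of the nuclear envelope, had 9.29 and 10.16, a difference of 0.87 against -0.99 to -0.67. The collagenase MMP1 had 8.08 and 7.33 in CAKI2, but its values in the other lines' DMSO arrays (5.18 to 5.76) were below the filter level. The total of 8 compares with 11 in ACHN, 30 in A498 and 12 in CAKI1.

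Metallothioneins, small proteins that bind zinc and copper, had lower values with the drug in every line. Apart from MT1G, at -1.64 in CAKI2 and -1.81 in ACHN, the difference was largest in CAKI2 by their brightest probe sets. MT2A had 14.23 and 13.04 in CAKI2, a difference of -1.20 against -0.66 to -0.44. MT1H had -1.53 against -1.02 to -0.86 and MT1E -1.31 against -0.90 to -0.36. These genes are near-identical copies and their probe sets can share signal, and for MT1X and MT1F a second probe set lay above the range instead (-0.34 against -1.26 to -0.76 for MT1X). Of the list of 11 metallothioneins and metal transporters 8 were below the range and 2 above it, with 0 called. The count below was 2 when probe sets matching several transcripts were left out, a setting in which members with no other probe set are not tested. SLC39A14, a zinc importer that ATF6 and ATF4 induce, was one of the 2 above, with 11.82 and 13.51, a difference of 1.69 against 0.94 to 1.15 in its brightest probe set. Its dimmer one was below the range.

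NRF2 targets, which detoxify reactive compounds, separated the lines mainly by ACHN. In CAKI2 0 of 21 were above the range and 7 below it, with 0 called, and 18 lay above the range in ACHN. In A498 14 lay below it, and its median of -0.11 was lower than the 0.03 of CAKI2. Without A498 in the comparison, 20 of the 21 were below the range in CAKI2. OSGIN1, an NRF2-induced growth inhibitor, had 8.30 and 8.28 in CAKI2, a difference of -0.02 against 0.82 to 3.38, from the highest DMSO value of the lines. SRXN1, which repairs oxidized peroxiredoxins, had 13.13 and 12.96, a difference of -0.17 against 0.18 to 1.89, again from the highest DMSO value. HMOX1, heme oxygenase, had 12.17 and 13.54 in CAKI2, and its difference of 1.37 lay inside the range, far from the 4.48 of ACHN.

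Lists of replication and of mitosis genes had medians below 0 in all lines, and those of CAKI2 and ACHN were the lowest. SPC24, a kinetochore subunit, had 10.85 and 7.92 in its brightest probe set, a difference of -2.93 against -2.53 to -1.54, while the mean of all its probe sets departed upwards by 0.93. DLGAP5, a spindle protein, had 11.23 and 8.96, a difference of -2.27 against -1.68 to -1.10. CCNA2, cyclin A, had -2.01 against -1.52 to -0.87, and -2.06 against -1.42 to -0.45 in its second probe set. KIFC1, a mitotic motor, was an exception, at -1.33 against -2.90 to -2.02, and BUB1, a checkpoint kinase, had 0.11 against -0.65 to -0.17. Of 36 genes of G2/M and mitosis 25 were below the range and 2 above it, 0 were called, and the median was -1.32 in CAKI2 and -1.25 in ACHN, against -0.65 in A498 and -0.91 in CAKI1. The count below was 15 when probe sets matching several transcripts were left out, where members with no other probe set are not tested. By the same rule 9 of the 36 lay below the range in ACHN and 0 in A498. Of the 25 below it in CAKI2, 10 had further bright probe sets. In 4 of these all lay below the range too, and in 0 did any lie above it.

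Replication genes gave 14 of 37 below the range and 1 above it, with 0 called, while by the same rule 22 lay below it in ACHN. The median was -1.50 in CAKI2 and -1.63 in ACHN, and without ACHN 32 of the 37 were below. MCM6, a subunit of the replicative helicase, had 13.00 and 9.98 in CAKI2, a difference of -3.02 against -2.29 to -1.75. MCM5, another subunit of that helicase, had -3.18 against -1.96 to -0.39, but was inside the range in a second probe set. Of 14 regulators of G1 8 were below the range and 1 above it, with 0 called. Their median was -0.47 in CAKI2 and -0.48 in CAKI1, so CAKI2 was not the lowest, and -0.0022 in ACHN and -0.10 in A498. CDK6, the kinase of early G1, had 11.39 and 11.24 in CAKI2, a difference of -0.14, while it was higher with the drug by 0.59 to 1.07 in the other lines. Of its further 5 bright probe sets 4 were below the range as well. CCND3, a D-type cyclin, had -1.51 against -1.08 to 0.04.

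Nuclear genes of oxidative phosphorylation were slightly less reduced in CAKI2, with a median of -0.26 against -0.38 for the mean of the other lines. Of 29 tested 14 were above the range and 0 below it, with 0 called. By the same rule 8 lay above the range in ACHN, 1 in A498 and 6 in CAKI1, and 17 lay below it in A498. When arrays were centred on their medians and not quantile normalized, 8 were above the range in CAKI2. UQCRC2, a core subunit of complex III, was among the 14, as were the complex II subunit SDHC and the complex I subunit NDUFA2. In none of the 5 members with further bright probe sets did all of these lie above the range.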

How the data were processed

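Total RNA of 8 samples was labelled with biotin and hybridised to oligonucleotide arrays, 1 array per line and treatment. Each probe set has 1 deposited intensity value, which the authors had scaled so that the mean trimmed by 2% was the same on every array. The program used for that is not given in the sources used here. Signals were transformed as log2(signal + 16) and quantile normalized without 62 control probe sets. The offset understates differences of dim genes. Of 54675 probe sets, 41091 carried a single symbol in the platform annotation, 1801 carried more than 1 and 11721 none in the table given. Of the first, 41037 were matched by Entrez ID to RefSeq GRCh38.p14, used for names. A gene was represented by its brightest probe set, and 12093 of 19775 genes, those with a mean of at least 6.41 (the median probe set), were tested. Genes were fitted with limma (version 3.58.1 in R 4.3.3) on all 8 arrays, with the line as block, a drug term and a term for the drug in CAKI2, 2-sided, with Benjamini-Hochberg adjustment at 0.05 and 8.58 degrees of freedom (2 residual). The p-values rest on the spread between lines, and CAKI2 is assumed to vary like the others. Precision is limited by the number of arrays, and the median SE of the departure was 0.37. The fit was tested on simulated data.

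The comparison and 40 gene lists (867 genes, of which 704 were tested) were chosen with earlier results of these data known. Lists are therefore described by counts and medians without a test. The rule for named genes took SCD and SCD5, the 15 genes farthest outside the range on each side, the 10 largest differences in CAKI2 each way, up to 5 per fold class and up to 3 per list. Genes that the rule picked on dim signal alone were mostly left unnamed, and further list members were named after their values were seen. Promoters came from a RefSeq table holding 27305 genes. A gene with several starts counted as holding a motif if any window did, and the window with most matches was used. NUPR1, IFIT2 and OASL had none in it. Alternatives were the offset, scaling, filter, probe set choice, fold limits, variance model and leaving out each line.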

Additional observations from a re-analysis of the deposited data

Results flagged for a closer look

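The 8 genes with opposite differences of at least 1.5-fold in CAKI2 and in all 3 other lines were singled out by a difference between groups. The limma test of that difference passed for none of them, with adjusted p from 0.500 to 0.855, and all 8 had an unadjusted p under 0.05. The genes were chosen by these same values, so that count follows largely from the choice and is no support. The CAKI2 difference minus the mean of the other lines was -2.90 for ANKRD1, -2.19 for MMP1, -2.08 for LRRC43 and -1.98 for ZFP37. It was 2.61 for ACSM3, 2.14 for SEMA5A, 2.03 for GAL and 1.74 for SYNE2. Of the 8, ANKRD1, ACSM3 and SYNE2 were above the filter level on both CAKI2 arrays and in the mean DMSO value of the other lines.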

How the results depend on the processing

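Drug and DMSO were paired within each line by the block of the fit, and the labels give no replicate numbers for a further pairing. Genes called numbered 0 in every setting but one: without CAKI1 they were 6, a range of 0 to 6 with a line left out. Values of single genes kept their direction and their side of the threshold in 2201 of 2221 gene and setting pairs, and 6 more passed the threshold without CAKI1. In the remaining 14 the direction turned: IL1A at -0.76 with an offset of 1 and -0.62 without probe sets matching several transcripts, GAMT at 0.35 with an offset of 1, and ATF3 at -0.018 with the deposited scaling, -0.059 with median centring and -0.040 to 0.14 with a line left out. With the mean of all probe sets SPC24 had 0.93, CCDC138 -0.14, MT1X 0.051 and MT1F 0.056. Without probe sets matching several transcripts CXCL2 had -0.29, GINS2 0.19 and KCNMA1 -0.53.

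Fold classes moved most. Genes 2-fold different in CAKI2 and not elsewhere were 426 without a filter, 90 with a stricter filter and 217 to 272 with a line left out, where there are fewer lines to exclude a gene. Genes different elsewhere and not in CAKI2 were 65 without a filter, 23 with the mean of all probe sets, 138 with looser fold limits, and 87 to 130 with a line left out. Opposite genes were 4 and 15 with offsets of 64 and 1, 42 without a filter, 3 with the stricter one, 63 with the looser limits, and 26 to 43 with a line left out. Genes higher and lower with the drug in CAKI2 were 1562 and 1679 without a filter, and 1866 and 2084 at 1.5-fold. Of the list counts, oxidative phosphorylation had 8 above the range with median centring, and G1 regulators had 5 below it with the mean of all probe sets. Without probe sets matching several transcripts p53 targets had 9 below, metallothioneins 2 and G2/M 15. Only 9377 genes were tested in that setting, so these lower counts can include members no longer tested. With a line left out replication genes had 14 to 32 below and NRF2 targets 7 to 20. Where no construction is named, the cause was not tested. Signal over background limits genes near the filter level, and 1 array per side limits all of them.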

Other observations

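Some further groups held single genes on which CAKI2 stood outside the other lines. Among cytosolic heat shock proteins 6 of 14 were below the range and 2 above it, with a median of -0.14 in CAKI2 against 0.12. HSPH1, a cochaperone of HSP70, had 12.88 in DMSO and 12.58 with the drug, a difference of -0.30 against 0.27 to 0.89, and 2 further probe sets were below the range as well. HSP90AA1 had -0.41 against -0.15 to -0.05, with 3 of 3 further probe sets below the range. DNAJA1, another HSP70 partner, had -0.24 against 0.06 to 0.31. In the hypoxia list 7 of 27 were above the range and 5 below it (25.9% and 18.5%), no more than about the background shares of 25.0% and 25.2%. By the same rule 7 lay above it in ACHN, 1 in A498 and 12 in CAKI1. EPAS1, which encodes the HIF2 alpha subunit, had 10.42 and 11.76 in CAKI2, a difference of 1.33 against -0.57 to 0.22. CAKI2 had the lowest EPAS1 value of the DMSO arrays, the others having 12.42 to 12.69.

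Among sphingolipid enzymes, where 7 of 17 were above the range and 3 below it, CERS6, the ceramide synthase that uses palmitoyl-CoA, had 10.68 and 9.40 in CAKI2. Its difference of -1.28 compared with -0.62 to -0.29, and 2 further probe sets were also below the range. SPTLC2, a subunit of the enzyme that starts sphingolipid synthesis from the same acyl chain, had 0.57 against -0.28 to -0.04, with 3 of 3 further probe sets above the range. In the list of YAP targets and actin genes, 4 of 20 were above the range and 7 below it. Beside ANKRD1, ACTN4, an actin crosslinker, had -1.69 against -0.95 to -0.59, and CCN2, a matricellular YAP target, had -1.34 against -0.84 to 0.31. ABCA1, the cholesterol exporter, had 1.07 in CAKI2 against 1.26 to 1.92, with its second bright probe set below the range too.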
